A study of Mus musculus with 13 samples.

Results

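The cyclic AMP (cAMP) signalling machinery was described in damaged hepatocytes cultured with a cocktail that contains forskolin, a direct activator of adenylate cyclase, and in the same cocktail with 1 compound left out at a time. Its members were chosen by gene symbol alone, as the genes named Adcy, Pde, Prkar, Prkac, Akap, Creb or Rapgef with a family number, and by a minimum of 10 counts in at least 2 libraries. Of the 27141 genes with counts, 62 had such a symbol and 56 of these passed the minimum. They were 9 adenylate cyclases, 8 cAMP-specific phosphodiesterases, 6 phosphodiesterases that cleave both cAMP and cGMP, 5 members of the phosphodiesterase families 5, 6 and 9, 4 regulatory and 2 catalytic subunits of protein kinase A (PKA), 13 A kinase anchoring proteins, 3 CREB factors, both EPAC genes and 4 other Rap exchange factors. Adcy10, Pde2a, Pde6a, Pde11a, Akap3 and Akap14 fell below the minimum and were not described further.

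The cells were damaged hepatocytes (dHeps) of genotype WT, isolated by collagenase perfusion from mice injured with carbon tetrachloride (CCl4), and kept for 16 days in serum-free medium. The DMSO group received the solvent. The 5C group received 5 compounds, each with a letter. G was GSK429286A, which inhibits ROCK, C was CID755673, which inhibits protein kinase D, E was ETC-1002, which activates AMPK, F was forskolin, and S was Salidroside, a glycoside from plants. The groups 5C-G, 5C-C, 5C-E, 5C-F and 5C-S received 5C without the compound named by the letter. Each group had 2 libraries, A and B, except 5C-S with 1, and the letters pair nothing between groups. Forskolin was thus absent from the 4 libraries of DMSO and 5C-F and present in the other 9. DMSO also lacked the other 4 compounds. The study's methods describe its replicates as biological, without saying whether A and B came from separate animals, and the p-values measure the spread between these libraries. Each gene had 1 estimate of spread, shared by all groups. A chi-square of the counts of A against B, per degree of freedom, was 8.005 in DMSO and 14.07 in 5C. It was 28.91 in 5C-E, 62.87 in 5C-F, 75.69 in 5C-C and 86.55 in 5C-G. The p-values do not show these differences between groups.

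Adenylate cyclases are membrane enzymes that make cAMP when a Gs-coupled receptor, such as the glucagon receptor of hepatocytes, is engaged, and forskolin binds and activates most of them directly. Phosphodiesterases (PDEs) hydrolyse cAMP. The nucleotide acts through PKA, a tetramer of regulatory and catalytic subunits held in place by anchoring proteins, and through EPAC, an exchange factor for the small GTPase Rap. PKA phosphorylates CREB, which binds the cAMP response element in promoters, and in the fasting liver this pathway is known for switching on gluconeogenesis.

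Total counts per library ran from 30195867 to 45491932, and the 56 members took between 0.151% and 0.25% of them. Levels are given in FPKM, which divides by gene length and total count, and fold changes come from a single edgeR fit over the 19884 genes that passed a filter on low counts, all 56 members among them. A gene was called when its Benjamini-Hochberg adjusted p was under 0.05 and its log2 fold change beyond 1, and a fold change is given with its standard error (SE). The hepatocyte marker Alb, which encodes albumin, ranged from 2122 to 18255 FPKM, and the summed FPKM of 8 hepatocyte markers in libraries A and B was 3535 and 3033 in 5C-E, 4959 and 4556 in 5C-C, 6402 and 7712 in 5C-G, 10863 and 10826 in 5C, 11691 and 10468 in DMSO, 21442 and 17027 in 5C-F, and 7030 in 5C-S. The summed FPKM of 13 macrophage markers was 5190 and 5260 in DMSO, 556 and 645 in 5C, 5307 and 7513 in 5C-G, 1053 and 1750 in 5C-C, 750 and 885 in 5C-E, 1769 and 2114 in 5C-F, and 666 in 5C-S, so macrophage transcripts moved with the groups. The summed FPKM of 15 markers of stellate cells, fibroblasts and smooth muscle ranged from 922 to 2389.5, that of 5 cholangiocyte markers from 1456 to 3422, that of 8 endothelial markers from 9.36 to 89.6 and that of 3 lymphocyte markers from 0 to 0.269. Most of the cholangiocyte sum was Spp1, and nearly all of the endothelial sum was Lyve1 and Kdr. The mean of Lyve1 was 71.6 FPKM in DMSO, 38.6 in 5C-G and 2.95 in 5C. In such bulk libraries fewer cells of a type and less RNA per cell cannot be told apart.

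Leaving out CID755673 gave the most calls, among the members as over all genes, while in 5C against DMSO the members were called about as often as other genes. In 5C against DMSO 1 of 56 members was higher (1.79%, against 1.66% of all genes tested) and 2 were lower (3.57%, against 2.89%). In 5C-G against 5C 2 members were higher (3.57%, against 7.47% of all genes) and 6 lower (10.7%, against 5.64%). In 5C-C against 5C 4 were higher (7.14%, against 9.65%) and 16 lower (28.6%, against 10.5%). In 5C-E against 5C 1 was higher (1.79%, against 0.654%) and 1 lower (1.79%, against 1.31%). In 5C-F against 5C none was higher (against 2.69% of all genes) and 6 were lower (10.7%, against 2.15%). For the members higher in 5C-F edgeR gave 1 at an unadjusted p under 0.05, and DESeq2 called 0. The last 4 comparisons share the 5C libraries as their control. Of the 8 hepatocyte markers 4 were called lower in 5C-C, 4 lower and 1 higher in 5C-G, 4 lower in 5C-E and 2 higher in 5C-F, each against 5C. Of the 13 macrophage markers 6 were higher and 1 lower in 5C-C, 11 higher in 5C-G and 10 higher in 5C-F. Of the 15 markers of stellate cells, fibroblasts and smooth muscle 1 was higher and 7 lower in 5C-C, Reln and Myh11 by the most (-4.60 and -4.32), 6 were higher and 3 lower in 5C-G, 1 higher and 5 lower in 5C-E, and 2 lower in 5C-F. The part of these markers in the members' differences was not tested.

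The median log2 fold change over the 56 members was 0.01 in 5C against DMSO and, against 5C, -0.57 in 5C-C, -0.38 in 5C-G, -0.33 in 5C-F and 0.18 in 5C-E, while the median over all genes lay between -0.01 and 0.01 in each. The split in 5C-C moved with the correction for gene composition. With each library's counts corrected for GC content and gene length (an edgeR offset, called the offset here), 5 members were higher and 6 lower in 5C-C, 2 and 4 in 5C-G, 1 and 4 in 5C-F, 2 and 1 in 5C-E, and 2 and 2 in 5C against DMSO. With library totals in place of TMM factors the counts were 1 and 18 in 5C-C, 0 and 8 in 5C-G, 2 and 0 in 5C-E, and 2 and 2 in 5C against DMSO, and under this scaling the median gene stood at -0.15 in 5C-C, -0.14 in 5C-G, -0.11 in 5C-F, 0.08 in 5C-E and 0.08 in 5C against DMSO. Without 5C-C B 12 members were called in 5C-C, while 5C-G gave 15 without 5C-G A, 4 without 5C-G B and 5 without 5C B. In 5C-F 2 were called without 5C A, 1 without 5C B and 2 without 5C-F B. In 5C-E 1 was called without 5C A or 5C-E A, and 0 without 5C B or 5C-E B. These counts under other settings are given without the share over all genes.

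**Figure D1:**
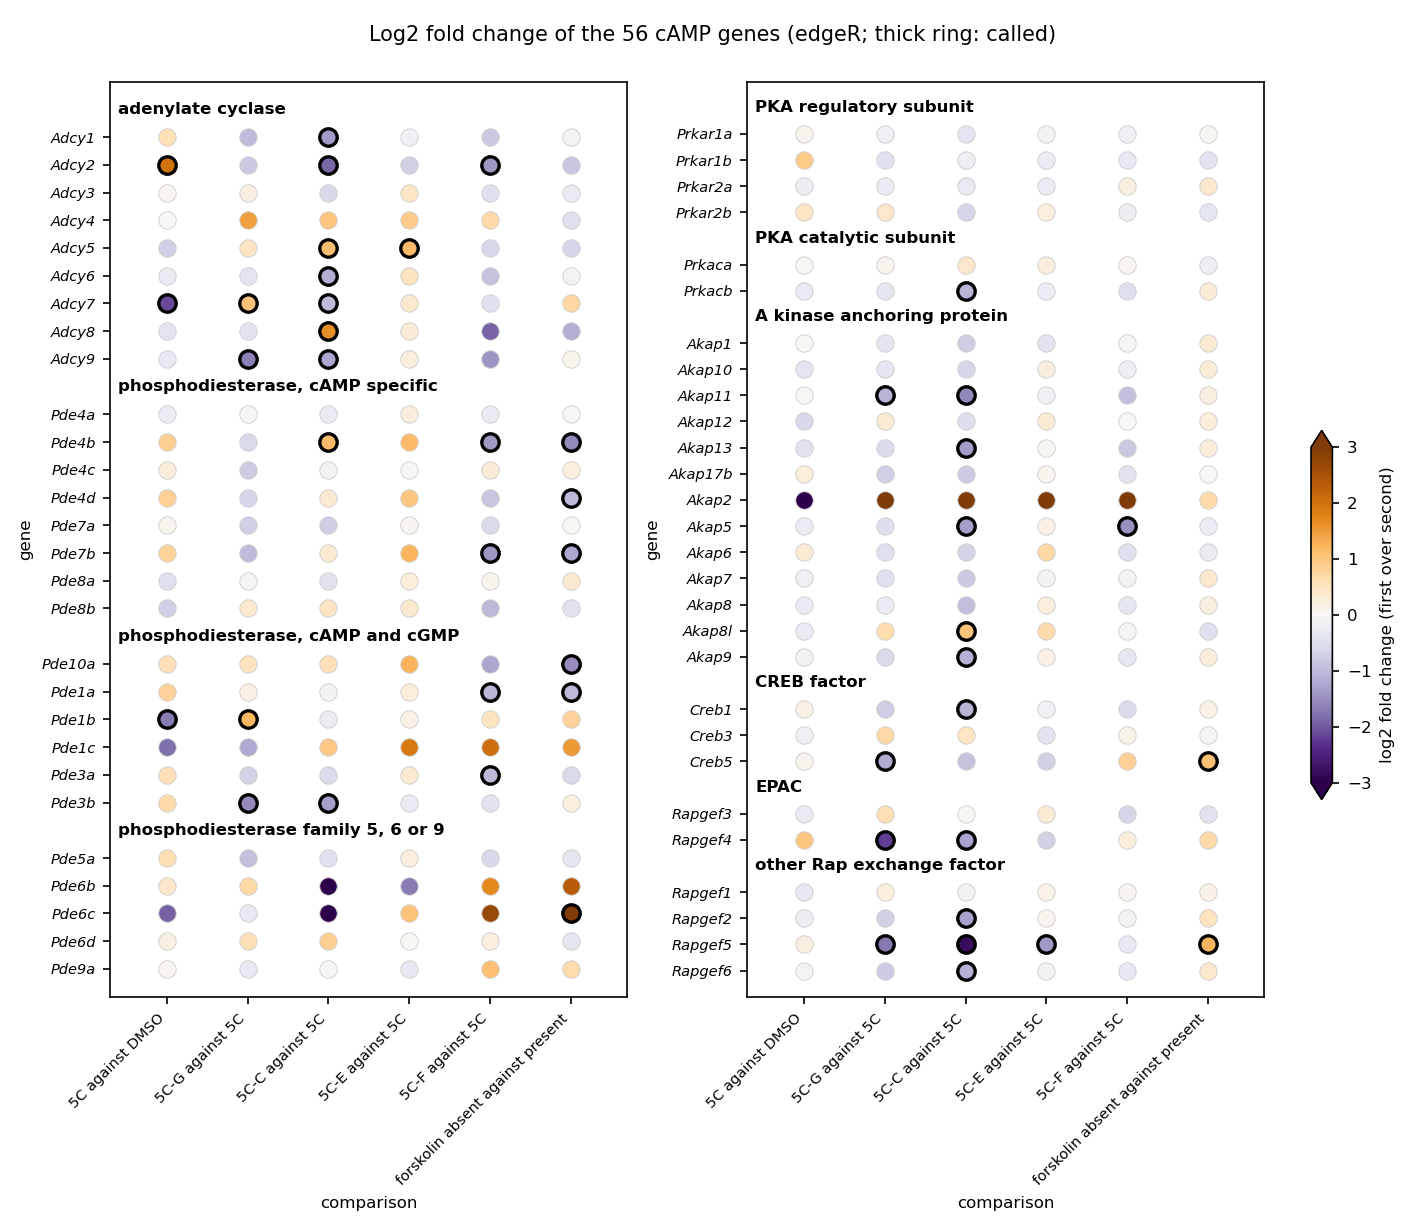
Log2 fold change of each of the 56 members (rows, by role) in 6 comparisons (columns), as colour, with a thick ring around each call (adjusted p under 0.05 and log2 fold change beyond 1). The 5C-C column holds 20 rings, of which 16 are on the lower side, and the 4 rows of PKA regulatory subunits hold none.

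Adenylate cyclases make cAMP. The 9 genes together reached 24.7 ± 0.91 FPKM (SD, n = 2) in DMSO and 22.9 ± 0.10 in 5C, against 29.9 ± 2.15 in 5C-E, 17.4 ± 6.1 in 5C-G, 12.01 ± 3.96 in 5C-C and 11.6 ± 1.56 in 5C-F. The 4 libraries of 5C-C and 5C-F ran from 9.21 to 14.8 FPKM, and those of DMSO, 5C and 5C-E from 22.8 to 31.4. Between or among these lay 5C-G, at 21.7 and 13.1, and 5C-S, at 20.3. No test was run on the sum. Adcy6, a calcium-inhibited cyclase, was the most abundant of the 9 in every library but 5C-C B, where Adcy5 was just above it, and made up between 22.2% and 40.4% of the cyclase FPKM of a library.

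In FPKM, libraries A and B of Adcy6 read 8.59 and 8.58 in DMSO, 7.696 and 7.47 in 5C, 7.901 and 2.91 in 5C-G, 3.48 and 2.57 in 5C-C, 10.2 and 12.7 in 5C-E, 2.96 and 4.596 in 5C-F, and 6.67 in 5C-S. Its levels in 5C-C lay below both 5C libraries, and the log2 fold change against 5C was -1.17 ± 0.30 (SE, adjusted p = 0.00579). In 5C-F the levels were also below 5C but did not pass (log2 fold change -0.91 ± 0.30, adjusted p = 0.0591). The Adcy6 call was lost without 5C-C B (log2 fold change -0.99, adjusted p = 0.067).

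Adcy2, a cyclase stimulated by G protein beta-gamma subunits, was the member that rose in 5C. Libraries A and B of each group gave Adcy2 FPKM of 0.876 and 0.747 in DMSO, 3.49 and 3.39 in 5C, 1.86 and 1.71 in 5C-G, 1.099 and 0.573 in 5C-C, 2.67 and 1.74 in 5C-E, 0.834 and 1.605 in 5C-F, and 2.62 in 5C-S. Both 5C libraries were the highest of all 13, and DMSO, 5C-C and 1 library of 5C-F were at 1.10 FPKM or less. In 5C against DMSO the fit gave Adcy2 a log2 fold change of 2.01 ± 0.36 (adjusted p = 0.00135). It fell when CID755673 or forskolin was left out (log2 fold change -1.90 ± 0.36 (adjusted p = 6.52e-04) and -1.41 ± 0.35 (adjusted p = 0.0182)). The call in 5C-F was lost without 5C A, 5C B or 5C-F A (log2 fold change -1.41 to -1.04, adjusted p = 0.0997 to 0.12).

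Adcy1, a calmodulin-stimulated cyclase, fell in 5C-C. The FPKM of Adcy1 in libraries A and B was 2.305 and 2.39 in DMSO, 3.202 and 4.22 in 5C, 2.08 and 1.37 in 5C-G, 1.33 and 1.23 in 5C-C, 3.98 and 3.204 in 5C-E, 2.16 and 1.77 in 5C-F, and 2.47 in 5C-S. Its 5C libraries were above those of 5C-C, 5C-G and 5C-F without overlap. The fitted change of Adcy1 in 5C-C against 5C was -1.38 ± 0.22 on the log2 scale (adjusted p = 2.12e-04). The 5C-G and 5C-F differences had adjusted p-values under 0.05 but log2 fold changes short of 1 (-0.99 ± 0.22 (adjusted p = 0.00336) and -0.82 ± 0.22 (adjusted p = 0.0259)).

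Adcy7, a cyclase best known from blood and immune cells, showed the larger of the 2 falls in 5C against DMSO. Levels of Adcy7 in libraries A and B, in FPKM, were 5.17 and 4.85 in DMSO, 1.25 and 1.18 in 5C, 2.65 and 1.93 in 5C-G, 0.722 and 0.371 in 5C-C, 1.64 and 1.64 in 5C-E, 0.637 and 1.02 in 5C-F, and 1.09 in 5C-S. The DMSO libraries were the highest of the 13. For 5C against DMSO edgeR gave a log2 fold change of -2.12 ± 0.29 (adjusted p = 9.66e-05). In 5C-G it was higher than in 5C (log2 fold change 1.04 ± 0.28, adjusted p = 0.0127) and in 5C-C lower (log2 fold change -1.01 ± 0.29, adjusted p = 0.0124), and the former call was lost without 5C A, 5C B or 5C-G A (log2 fold change 0.89 to 1.06, adjusted p = 0.0488 to 0.103) and the latter was lost without 5C A, 5C B or 5C-C B (log2 fold change -1.003 to -0.61, adjusted p = 0.056 to 0.157). Over all 12 alternatives the 5C-G call was lost in 8 and the 5C-C call in 9, whereas the fall in 5C against DMSO was called in each. The macrophage markers were high in the same DMSO and 5C-G libraries, and their part in the Adcy7 levels was not tested. In 5C-C and 5C-F their sums were above those of 5C, while the Adcy7 mean was lower (0.546 and 0.827 against 1.21 FPKM).

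Adcy5, a relative of Adcy6 that calcium also inhibits, ran the other way to most cyclases in 5C-C. For Adcy5 the A and B libraries read, in FPKM, 2.29 and 2.57 in DMSO, 2.03 and 1.07 in 5C, 2.04 and 1.85 in 5C-G, 3.32 and 2.63 in 5C-C, 2.98 and 4.33 in 5C-E, 0.863 and 1.004 in 5C-F, and 2.57 in 5C-S. The 5C-C and 5C-E libraries were above both 5C libraries, of which 5C B was the lower. The log2 fold change of 5C-C against 5C was 1.11 ± 0.28 (adjusted p = 0.00471), and in 5C-E 1.17 ± 0.28 (adjusted p = 0.0261). The 5C-C call was lost without 5C B or 5C-C A (log2 fold change 0.76 to 0.98, adjusted p = 0.0231 to 0.0845), and the 5C-E call was lost without 5C B or 5C-E B (log2 fold change 0.83 to 0.88, adjusted p = 0.367 to 0.488).

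Adcy9, the cyclase least sensitive to forskolin, fell in 5C-G and in 5C-C. Adcy9 measured, in FPKM and in the order A and B, 2.72 and 1.72 in DMSO, 1.75 and 1.98 in 5C, 0.801 and 0.316 in 5C-G, 1.07 and 0.3503 in 5C-C, 2.22 and 2.398 in 5C-E, 0.457 and 0.842 in 5C-F, and 1.24 in 5C-S. Both 5C libraries were above the 6 libraries of 5C-G, 5C-C and 5C-F, although 5C-F did not pass (log2 fold change -1.43 ± 0.46, adjusted p = 0.0531). The log2 fold changes were -1.64 ± 0.46 (adjusted p = 0.0147) for 5C-G and -1.26 ± 0.46 (adjusted p = 0.0389) for 5C-C. The former was lost without 5C B or 5C-G B (log2 fold change -1.58 to -1.18, adjusted p = 0.0688 to 0.176), and the latter was lost without 5C A, 5C B or 5C-C B (log2 fold change -1.36 to -0.67, adjusted p = 0.0862 to 0.315).

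Adcy8, a calcium-stimulated cyclase, was a low transcript that rose in 5C-C. In FPKM, libraries A and B of Adcy8 read 0.345 and 0.197 in DMSO, 0.238 and 0.1997 in 5C, 0.252 and 0.0604 in 5C-G, 0.807 and 0.431 in 5C-C, 0.199 and 0.368 in 5C-E, 0.03802 and 0.0701 in 5C-F, and 0.137 in 5C-S. The 5C-C libraries were the highest, and the 5C-F libraries, with 12 and 24 counts, were among the 3 lowest. In 5C-C against 5C the fit gave Adcy8 a log2 fold change of 1.65 ± 0.59 (adjusted p = 0.0382), a call that was lost without 5C A, 5C B or 5C-C A (log2 fold change 1.19 to 1.76, adjusted p = 0.126 to 0.205). The lower 5C-F level did not pass (log2 fold change -1.91 ± 0.63, adjusted p = 0.0629).

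Adcy3 and Adcy4 were called in none of the 5 comparisons. Adcy3, a widely expressed cyclase, ranged from 0.913 to 4.91 FPKM, with the lowest level in 5C-C B and the highest in 5C-E B. Adcy4 stayed at or below 0.193 FPKM and had between 2 and 32 counts in a library. With the offset the change in 5C-C was 0.80 for Adcy5 and -0.73 for Adcy7, and that of Adcy5 in 5C-E was 0.74, so these 3 calls were lost.

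**Figure D2:**
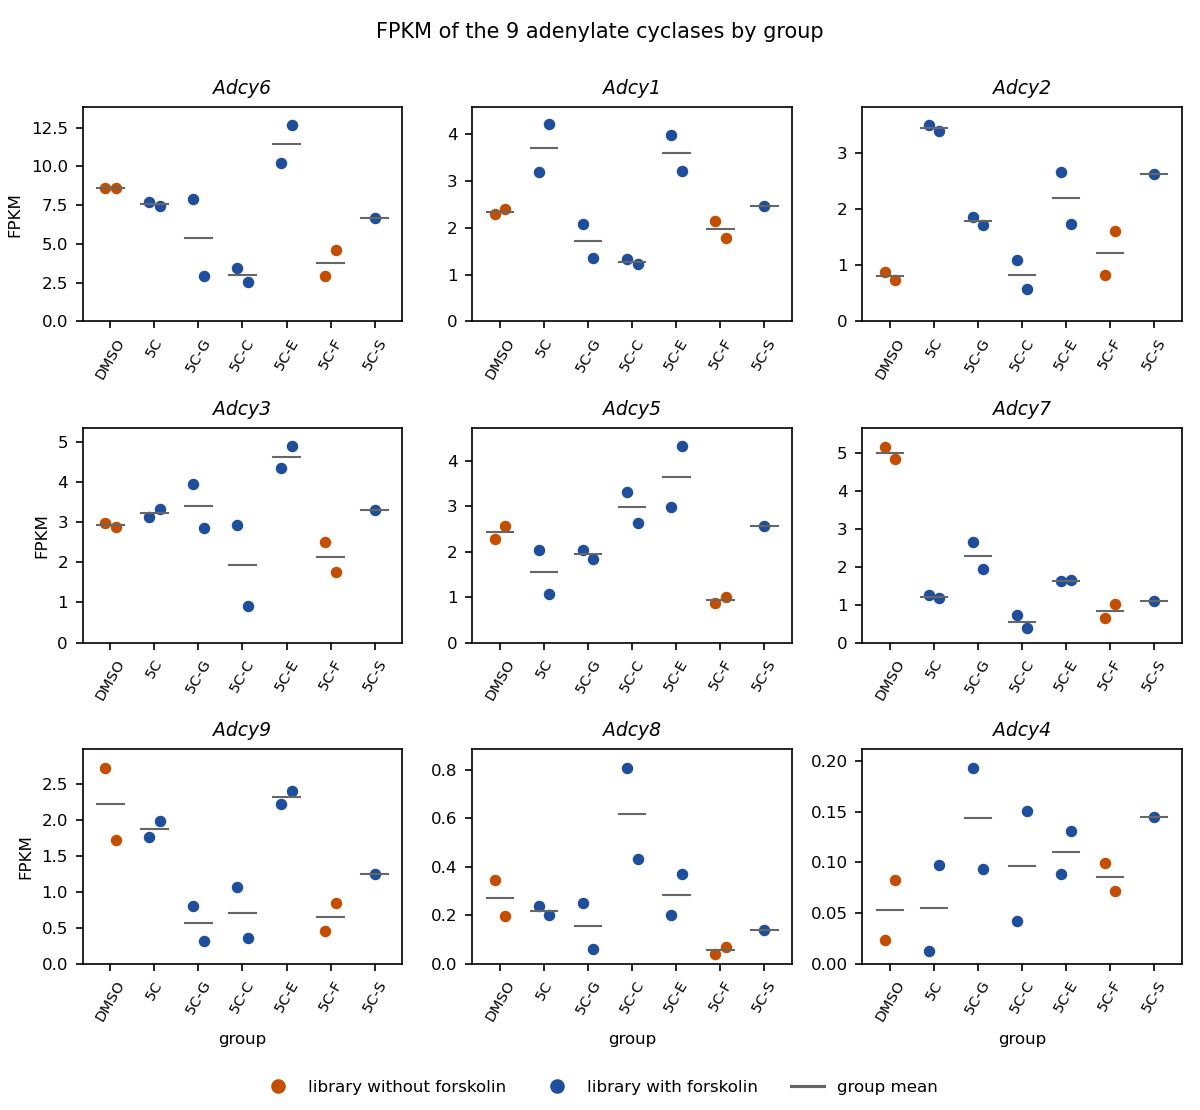
FPKM (vertical axis, linear) of the 9 adenylate cyclases in each library (points) and group mean (line), by group, with libraries without forskolin in orange and with it in blue. Adcy2 is highest in the 2 libraries of 5C (3.39 and 3.49 FPKM), Adcy7 in DMSO (4.85 and 5.17 FPKM) and Adcy8 in 5C-C.

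**Figure D3:**
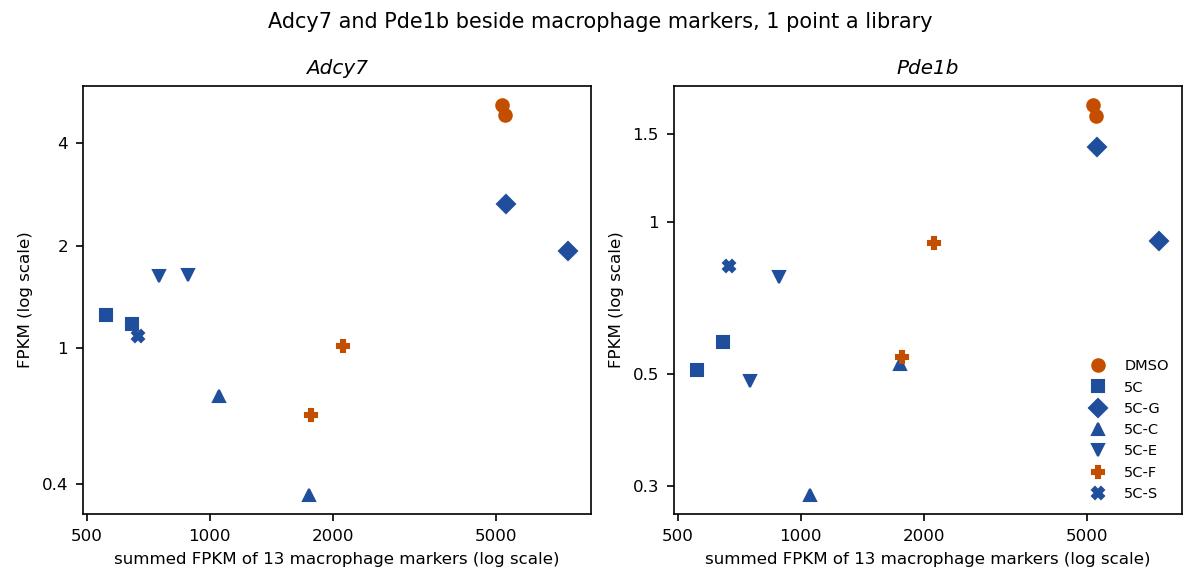
FPKM of Adcy7 and Pde1b (vertical axes, log scale) against the summed FPKM of 13 macrophage markers (horizontal axis, log scale), 1 point a library with a shape for each group. The DMSO and 5C-G libraries, at 5190 to 7513 on the horizontal axis, hold the 4 highest values of both genes.

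Phosphodiesterases end the signal. The 8 cAMP-specific genes, of families 4, 7 and 8, summed to 15.8 ± 1.2 FPKM in DMSO, 14.7 ± 0.22 in 5C, 20.3 ± 1.1 in 5C-E, 11.7 ± 0.83 in 5C-F, 11.5 ± 2.4 in 5C-C and 11.2 ± 2.3 in 5C-G. Pde8a, of a high-affinity family that the inhibitor IBMX does not block, was the most abundant of them in every library, from 3.88 to 9.84 FPKM, and was called in none of the comparisons. Of the 8, Pde4b was called higher in 5C-C, and Pde4b and Pde7b lower in 5C-F.

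Pde4b, a member of the family that the anti-inflammatory drug rolipram inhibits, moved in opposite directions in 5C-C and 5C-F. Libraries A and B of each group gave Pde4b FPKM of 0.616 and 0.526 in DMSO, 0.965 and 1.19 in 5C, 0.815 and 0.518 in 5C-G, 2.38 and 1.94 in 5C-C, 2.06 and 2.98 in 5C-E, 0.496 and 0.261 in 5C-F, and 1.27 in 5C-S. The 5C-F libraries were the lowest, with the B library of 5C-G just above, and the 4 libraries of 5C-C and 5C-E were the highest. The fitted change of Pde4b in 5C-F against 5C was -1.40 ± 0.32 on the log2 scale (adjusted p = 0.0117), and in 5C-C 1.16 ± 0.31 (adjusted p = 0.00696). The 5C-F call was lost without 5C B or 5C-F B (log2 fold change -1.21 to -0.98, adjusted p = 0.112 to 0.123), and the 5C-C call was lost without 5C A (log2 fold change 0.999, adjusted p = 0.0838). The 5C-E difference did not pass (log2 fold change 1.15 ± 0.31, adjusted p = 0.0529).

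Pde7b, a cAMP-specific enzyme insensitive to rolipram, fell in 5C-F. The FPKM of Pde7b in libraries A and B was 0.472 and 0.3403 in DMSO, 0.675 and 0.816 in 5C, 0.482 and 0.216 in 5C-G, 1.31 and 0.402 in 5C-C, 1.75 and 1.8998 in 5C-E, 0.216 and 0.306 in 5C-F, and 0.692 in 5C-S. Both 5C-F libraries were below both of 5C, and those of 5C-E were the highest of the 13. For 5C-F against 5C edgeR gave a log2 fold change of -1.42 ± 0.43 (adjusted p = 0.0436). The call was lost without 5C A, 5C B, 5C-F A or 5C-F B (log2 fold change -1.65 to -1.23, adjusted p = 0.122 to 0.227).

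The remaining cAMP-specific genes were not called in the 5 comparisons. Pde4a ranged from 1.22 to 2.40 FPKM, Pde4d from 0.155 to 0.985, Pde7a from 1.44 to 3.67, Pde4c up to 0.319 and Pde8b from 0.0486 to 0.257. Pde7a passed on adjusted p alone in 5C-C (log2 fold change -0.77 ± 0.22, adjusted p = 0.0122) and in 5C-G (log2 fold change -0.74 ± 0.22, adjusted p = 0.0216). Pde4d had its 2 highest libraries in 5C-E (0.771 and 0.985 FPKM), and its lowest was 5C-G B.

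Of the 6 dual-specificity genes, Pde3a and Pde3b belong to the cGMP-inhibited family, through which insulin lowers cAMP in liver and fat. Levels of Pde3b in libraries A and B, in FPKM, were 3.69 and 2.86 in DMSO, 5.71 and 5.46 in 5C, 2.06 and 1.48 in 5C-G, 2.39 and 1.61 in 5C-C, 4.799 and 5.03 in 5C-E, 4.82 and 2.91 in 5C-F, and 3.54 in 5C-S. Both 5C libraries were the highest of the 13, and the 4 libraries of 5C-G and 5C-C were the lowest. The log2 fold change of 5C-G against 5C was -1.54 ± 0.26 (adjusted p = 4.21e-04), and in 5C-C -1.32 ± 0.25 (adjusted p = 7.52e-04). The 5C-G call held in each of the 12 alternatives.

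Pde3a was called lower in 5C-F, and its levels in 5C-G and 5C-C were also below both 5C libraries. For Pde3a the A and B libraries read, in FPKM, 2.51 and 2.51 in DMSO, 4.08 and 3.8999 in 5C, 3.08 and 1.52 in 5C-G, 2.77 and 2.14 in 5C-C, 5.54 and 5.08 in 5C-E, 2.47 and 1.19 in 5C-F, and 2.79 in 5C-S. The 5C-E libraries were the highest and 5C-F B the lowest. In 5C-F against 5C the fit gave Pde3a a log2 fold change of -1.01 ± 0.30 (adjusted p = 0.0397). The call was lost without 5C A, 5C B or 5C-F B (log2 fold change -1.02 to -0.55, adjusted p = 0.168 to 0.295).

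Pde1a and Pde1b encode calmodulin-dependent enzymes. Pde1a measured, in FPKM and in the order A and B, 2.65 and 2.36 in DMSO, 4.62 and 4.59 in 5C, 4.08 and 5.31 in 5C-G, 4.58 and 3.17 in 5C-C, 5.62 and 6.07 in 5C-E, 2.51 and 1.67 in 5C-F, and 4.18 in 5C-S. The 4 libraries of DMSO and 5C-F were the lowest of the 13. The fitted change of Pde1a in 5C-F against 5C was -1.03 ± 0.25 on the log2 scale (adjusted p = 0.0174). The call was lost without 5C A, 5C B or 5C-F B (log2 fold change -1.05 to -0.73, adjusted p = 0.0957 to 0.158).

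In FPKM, libraries A and B of Pde1b read 1.71 and 1.62 in DMSO, 0.508 and 0.579 in 5C, 1.41 and 0.918 in 5C-G, 0.288 and 0.524 in 5C-C, 0.483 and 0.777 in 5C-E, 0.541 and 0.908 in 5C-F, and 0.8199 in 5C-S. The DMSO libraries were the highest, followed by both of 5C-G. Pde1b fell in 5C against DMSO (log2 fold change -1.69 ± 0.39, adjusted p = 0.012) and was higher in 5C-G than in 5C (log2 fold change 1.22 ± 0.39, adjusted p = 0.029). The former was lost without DMSO A, DMSO B, 5C A or 5C B (log2 fold change -1.80 to -1.58, adjusted p = 0.0679 to 0.149), and the latter was lost without 5C A, 5C B, 5C-G A or 5C-G B (log2 fold change 0.98 to 1.42, adjusted p = 0.0515 to 0.171). The macrophage markers were high in the same DMSO and 5C-G libraries, as for Adcy7, and their part was not tested. In 5C-C they summed to 1053 and 1750 FPKM, above 556 and 645 in 5C, while the Pde1b mean was lower (0.406 against 0.544 FPKM).

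Pde10a ranged from 0.0844 to 0.734 FPKM and Pde1c stayed at or below 0.0277, and neither was called in the 5 comparisons. In the families 5, 6 and 9, which act on cGMP or, for Pde6d, chaperone prenylated proteins, no gene was called in the 5 comparisons. Pde6d was the most abundant phosphodiesterase symbol, from 10.8 to 23.9 FPKM. Pde5a ranged from 0.816 to 2.95 FPKM and Pde9a from 0.193 to 0.854, with both 5C-F libraries of Pde9a above all others. Pde6b and Pde6c were near the floor of 3 counts in several libraries. With the offset the 5C-F changes were -0.76 for Pde1a, -0.57 for Pde3a and -0.90 for Pde7b and the 5C-C change of Pde3b was -0.54, and these 4 calls were lost.

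**Figure D4:**
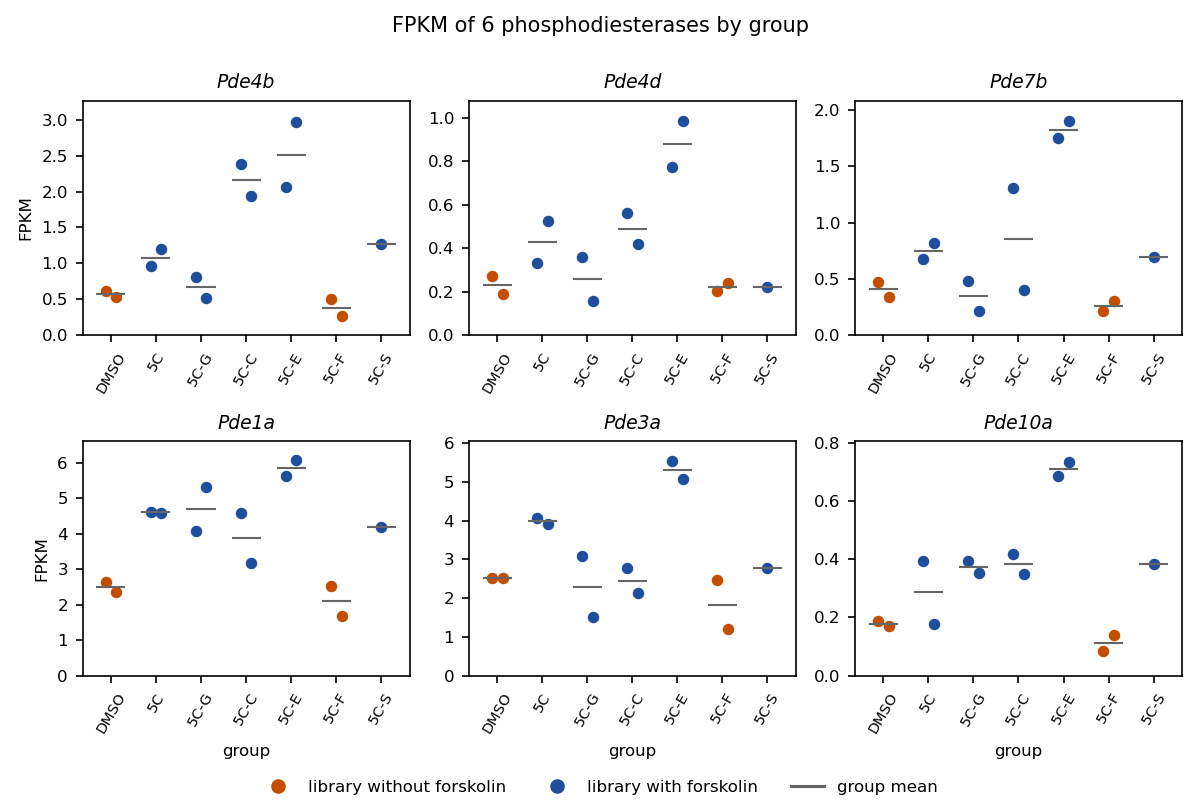
FPKM (vertical axis, linear) of 6 phosphodiesterases in each library (points) and group mean (line), by group, with libraries without forskolin in orange and with it in blue. The 4 libraries without forskolin are the lowest of the 13 for Pde1a, at 1.67 to 2.65 FPKM, and both 5C-E libraries are the highest for Pde4d, Pde7b, Pde1a, Pde3a and Pde10a.

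Of the 6 PKA subunits 1 was called in the 5 comparisons, lower in 5C-C, where 10.5% of all genes were. The regulatory subunit Prkar1a, the most abundant member in every library, ranged from 85.1 to 127 FPKM and made up 87.9% to 90.7% of the regulatory FPKM of a library. Libraries A and B of each group gave Prkar1a FPKM of 111 and 111 in DMSO, 123 and 127 in 5C, 116 and 91.2 in 5C-G, 87.6 and 85.1 in 5C-C, 126 and 122 in 5C-E, 115 and 95.3 in 5C-F, and 112 in 5C-S. Prkar2a ranged from 6.10 to 11.5 FPKM, Prkar1b from 1.32 to 2.91 and Prkar2b from 0.973 to 2.62. The 4 regulatory genes were not called in the 5 comparisons, and the widest of their differences was that of Prkar1b in 5C against DMSO (log2 fold change 0.92 ± 0.29, adjusted p = 0.0738).

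The catalytic subunit Prkaca ranged from 51.5 to 74.4 FPKM and was not called. The FPKM of Prkacb in libraries A and B was 15.3 and 15.3 in DMSO, 13.1 and 13.99 in 5C, 12.6 and 7.21 in 5C-G, 6.34 and 5.03 in 5C-C, 12.4 and 12.1 in 5C-E, 10.2 and 7.74 in 5C-F, and 9.202 in 5C-S. The 5C-C libraries of Prkacb, the second catalytic gene, were the lowest of the 13, and the log2 fold change against 5C was -1.09 ± 0.21 (SE, adjusted p = 8.35e-04). Prkaca took 92.4% of the catalytic FPKM in 5C-C, against 81.1% in 5C and 77.7% in DMSO. The ratio of regulatory to catalytic FPKM was 1.32 and 1.27 in libraries A and B of 5C-C, 1.68 and 1.55 in 5C-E, 1.97 and 1.48 in 5C-G, 2.10 and 1.57 in 5C-F, 1.96 and 1.94 in 5C, and 1.86 and 1.76 in DMSO, with 1.69 in 5C-S. The 5C-C values were the lowest, and those of 5C-G and 5C-F spread widely between A and B. The Prkacb call was lost without 5C-C B (log2 fold change -0.96, adjusted p = 0.0154). With the offset the Prkacb change was -0.43.

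Of the 13 anchoring proteins 1 was called lower in 5C-G (against 5.64% of all genes), 1 higher and 4 lower in 5C-C (against 9.65% and 10.5%), and 1 lower in 5C-F (against 2.15%). Akap5, which tethers PKA and the phosphatase calcineurin at the plasma membrane, fell in 5C-C and 5C-F. Levels of Akap5 in libraries A and B, in FPKM, were 8.37 and 8.04 in DMSO, 8.28 and 6.65 in 5C, 6.18 and 3.61 in 5C-G, 2.61 and 2.72 in 5C-C, 8.87 and 8.45 in 5C-E, 2.396 and 2.598 in 5C-F, and 5.16 in 5C-S. The 4 libraries of 5C-C and 5C-F were the lowest of the 13. For 5C-F against 5C edgeR gave a log2 fold change of -1.48 ± 0.21 (adjusted p = 5.23e-04), and in 5C-C -1.32 ± 0.20 (adjusted p = 1.69e-04). The 5C-F call held in each of the 12 alternatives.

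Akap11, which also binds the kinase GSK3, fell in 5C-G and 5C-C. For Akap11 the A and B libraries read, in FPKM, 7.81 and 7.99 in DMSO, 8.59 and 8.36 in 5C, 5.01 and 2.41 in 5C-G, 3.01 and 2.15 in 5C-C, 8.47 and 7.59 in 5C-E, 4.66 and 3.46 in 5C-F, and 5.81 in 5C-S. The log2 fold changes were -1.09 ± 0.25 (adjusted p = 0.00419) for 5C-G and -1.56 ± 0.25 (adjusted p = 2.16e-04) for 5C-C. The 5C-G call was lost without 5C-G B (log2 fold change -0.72, adjusted p = 0.0612).

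Akap13 measured, in FPKM and in the order A and B, 6.84 and 6.69 in DMSO, 5.52 and 5.08 in 5C, 4.18 and 2.46 in 5C-G, 2.001 and 1.72 in 5C-C, 6.01 and 5.402 in 5C-E, 2.67 and 2.89 in 5C-F, and 4.34 in 5C-S. Akap13, a large anchor that is also an exchange factor for RhoA, fell in 5C-C (log2 fold change -1.35 ± 0.19, adjusted p = 8.92e-05), where its libraries were the lowest. In FPKM, libraries A and B of Akap9 read 1.83 and 1.88 in DMSO, 1.92 and 1.69 in 5C, 1.38 and 0.845 in 5C-G, 0.876 and 0.609 in 5C-C, 2.17 and 2.08 in 5C-E, 1.19 and 1.48 in 5C-F, and 1.59 in 5C-S. Akap9, an anchor of the Golgi and centrosome, fell in 5C-C too (log2 fold change -1.13 ± 0.22, adjusted p = 7.47e-04), a call that was lost without 5C-C B (log2 fold change -0.91, adjusted p = 0.0156). Libraries A and B of each group gave Akap8l FPKM of 10.4 and 9.41 in DMSO, 10.4 and 7.03 in 5C, 12.7 and 12.1 in 5C-G, 11.05 and 20.2 in 5C-C, 13.8 and 15.1 in 5C-E, 4.19 and 11.7 in 5C-F, and 18.6 in 5C-S. Akap8l, a nuclear protein of the AKAP95 family, was higher in 5C-C (log2 fold change 1.02 ± 0.34, adjusted p = 0.027), but both pairs of libraries were spread widely and the call was lost without 5C B or 5C-C B (log2 fold change 0.48 to 0.80, adjusted p = 0.197 to 0.374).

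With the offset the 5C-C changes were -0.62 for Akap5, -0.56 for Akap11, -0.65 for Akap13, -0.09 for Akap9 and 0.55 for Akap8l, and none of these 5 was called, nor was Akap11 in 5C-G at -0.47. The anchors not called were Akap1, of the mitochondrial surface, and Akap12, a scaffold also called gravin, at 4.60 to 15.5 FPKM, and Akap2, Akap6, Akap7, Akap8, Akap10 and Akap17b, at 0 to 6.66 FPKM.

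The CREB factors bind DNA. Creb3, a membrane-bound factor of the secretory pathway and not a classical cAMP target, ranged from 38.9 to 78.9 FPKM and was not called. Creb1, the factor that PKA phosphorylates, fell in 5C-C. The FPKM of Creb1 in libraries A and B was 2.88 and 3.05 in DMSO, 3.52 and 3.37 in 5C, 2.395 and 1.35 in 5C-G, 1.77 and 1.19 in 5C-C, 3.59 and 2.99 in 5C-E, 2.48 and 1.905 in 5C-F, and 2.41 in 5C-S. Both 5C-C libraries were below both of 5C. The log2 fold change of 5C-C against 5C was -1.06 ± 0.24 (adjusted p = 0.0025). With the offset the direction turned to 0.13 (adjusted p = 0.575), and the call was lost without 5C-C B (log2 fold change -0.82, adjusted p = 0.0429).

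Creb5, a CREB-like factor that binds the cAMP response element, was a low transcript. Levels of Creb5 in libraries A and B, in FPKM, were 0.3801 and 0.309 in DMSO, 0.388 and 0.397 in 5C, 0.193 and 0.1203 in 5C-G, 0.219 and 0.156 in 5C-C, 0.308 and 0.197 in 5C-E, 0.696 and 0.604 in 5C-F, and 0.207 in 5C-S. Both 5C-F libraries were the highest of the 13, and 5C-G B was the lowest. In 5C-G against 5C the fit gave Creb5 a log2 fold change of -1.21 ± 0.31 (adjusted p = 0.00789). The call was lost without 5C-G B (log2 fold change -0.98, adjusted p = 0.0958), and with the offset the change was -0.50. The rise in 5C-F did not pass (log2 fold change 0.83 ± 0.30, adjusted p = 0.0825).

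The promoter windows of the members were searched for the cAMP response element TGACGTCA, which is its own reverse complement, and for its core TGACG on both strands, which every full element also holds. RefSeq gave windows of 300 bases, 250 before to 50 after a start (table on GRCm38.p6), for 47 of the 56 members, 87 windows in all, and each was placed by exact match on GRCm39. The full element was in 2 of 47 members (4.26%, against 2.03% of all 27025 genes with a window), Creb5 and Prkar1a. The core was in 17 of 47 (36.2%, against 23.0%) and in 21.8% of the members' windows, against 20.8% of all windows. The 30 bases around the element are shown for both genes with the full element, and around the core for Pde4b, Pde1a and Adcy7, which were the members called in 5C-F or in 5C against DMSO that held it. Capitals mark the element or the core (CGTCA where it lies on the other strand), and each is read 5′ to 3′ on the strand of its gene.
Creb5: ggaatcccacgTGACGTCAccgggggggtg
Prkar1a: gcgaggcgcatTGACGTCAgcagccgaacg
Pde4b: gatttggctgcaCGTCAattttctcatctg
Pde1a: gtaacttcagccCGTCAttcctcagtaatt
Adcy7: tgatcatagagcCGTCAggggggtggggct
They lie at chr6:53264232-53264261 (plus strand) for Creb5, chr11:109541715-109541744 (plus) for Prkar1a, chr4:102278706-102278735 (plus) for Pde4b, chr2:79869395-79869424 (minus) for Pde1a and chr8:89009580-89009609 (plus) for Adcy7. In GENCODE the stretches of Creb5, Prkar1a, Pde4b and Pde1a overlap an exon of some transcript of their own gene, and that of Adcy7 overlaps none. The full element began 45 bases before a start of Creb5 and 49 before a start of Prkar1a, and the core 34 bases before 1 of 4 starts of Pde4b, 166 before 1 of 4 of Pde1a and 28 before 1 of 3 of Adcy7. Of the 6 members lower in 5C-F than in 5C, Pde4b and Pde1a held the core, Adcy2, Pde7b and Akap5 did not, and Pde3a was not searched. These are matches of letters, and binding was not measured.

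The balance of the EPAC genes differed between groups. Rapgef3 encodes EPAC1. For Rapgef3 the A and B libraries read, in FPKM, 6.78 and 7.97 in DMSO, 6.73 and 6.03 in 5C, 10.2 and 7.58 in 5C-G, 5.38 and 6.21 in 5C-C, 7.86 and 8.95 in 5C-E, 3.302 and 4.32 in 5C-F, and 9.08 in 5C-S. The 5C-F libraries were the lowest, but no difference from 5C passed the fold needed (log2 fold change -0.65 ± 0.19 (adjusted p = 0.0385) in 5C-F and 0.60 ± 0.19 (adjusted p = 0.0268) in 5C-G). Rapgef4, which encodes EPAC2, fell when GSK429286A was left out. Rapgef4 measured, in FPKM and in the order A and B, 1.47 and 1.67 in DMSO, 3.42 and 3.11 in 5C, 0.768 and 0.521 in 5C-G, 1.61 and 0.838 in 5C-C, 2.204 and 1.95 in 5C-E, 4.04 and 3.22 in 5C-F, and 2.598 in 5C-S. Both 5C-G libraries were the lowest of the 13, and both of 5C-F and 5C were the 4 highest. The fitted change of Rapgef4 in 5C-G against 5C was -2.22 ± 0.29 on the log2 scale (adjusted p = 4.84e-05), a call that held in each of the 12 alternatives. In 5C-C the change was -1.27 ± 0.28 (adjusted p = 0.0021), and this call was lost without 5C-C B (log2 fold change -0.89, adjusted p = 0.0346) and with the offset at -0.77. The higher level in 5C than in DMSO had an adjusted p under 0.05 but stayed just short of the fold needed (log2 fold change 0.98 ± 0.28, adjusted p = 0.0423).

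The log2 ratio of Rapgef4 to Rapgef3 FPKM was -2.21 and -2.25 in DMSO, -0.98 and -0.96 in 5C, -3.73 and -3.86 in 5C-G, -1.74 and -2.89 in 5C-C, -1.83 and -2.20 in 5C-E, 0.29 and -0.42 in 5C-F, and -1.81 in 5C-S. Only in 5C-F A did Rapgef4 exceed Rapgef3. The 5C-F libraries were above and the 5C-G libraries below all others in this ratio.

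Of the 4 Rap exchange factors that do not bind cAMP as EPAC does, Rapgef5 was called most often. In FPKM, libraries A and B of Rapgef5 read 1.09 and 0.871 in DMSO, 1.23 and 1.14 in 5C, 0.438 and 0.227 in 5C-G, 0.225 and 0.0858 in 5C-C, 0.556 and 0.3904 in 5C-E, 0.8302 and 0.957 in 5C-F, and 0.784 in 5C-S. The 5C-C libraries were the 2 lowest. For 5C-C against 5C edgeR gave a log2 fold change of -2.80 ± 0.39 (adjusted p = 7.77e-05), with -1.72 ± 0.37 (adjusted p = 0.00266) in 5C-G and -1.39 ± 0.36 (adjusted p = 0.0463) in 5C-E. The 5C-E call was lost without 5C A, 5C B, 5C-E A or 5C-E B (log2 fold change -1.64 to -1.16, adjusted p = 0.101 to 0.57). Libraries A and B of each group gave Rapgef2 FPKM of 3.57 and 3.06 in DMSO, 3.16 and 2.94 in 5C, 2.23 and 1.21 in 5C-G, 1.08 and 1.12 in 5C-C, 3.32 and 3.55 in 5C-E, 2.88 and 2.43 in 5C-F, and 2.73 in 5C-S. Rapgef2 fell in 5C-C (log2 fold change -1.31 ± 0.22, adjusted p = 3.01e-04), where its libraries were the lowest. The FPKM of Rapgef6 in libraries A and B was 2.93 and 3.02 in DMSO, 3.003 and 2.91 in 5C, 1.78 and 1.38 in 5C-G, 1.31 and 1.08 in 5C-C, 2.97 and 2.77 in 5C-E, 2.595 and 1.82 in 5C-F, and 2.17 in 5C-S. Rapgef6 fell in 5C-C as well (log2 fold change -1.14 ± 0.21, adjusted p = 5.4e-04). With the offset these changes were -0.81 for Rapgef2 and -0.16 for Rapgef6, neither called, and -1.96 for Rapgef5, still called. Rapgef1 ranged from 7.20 to 11.4 FPKM and was not called.

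**Figure D5:**
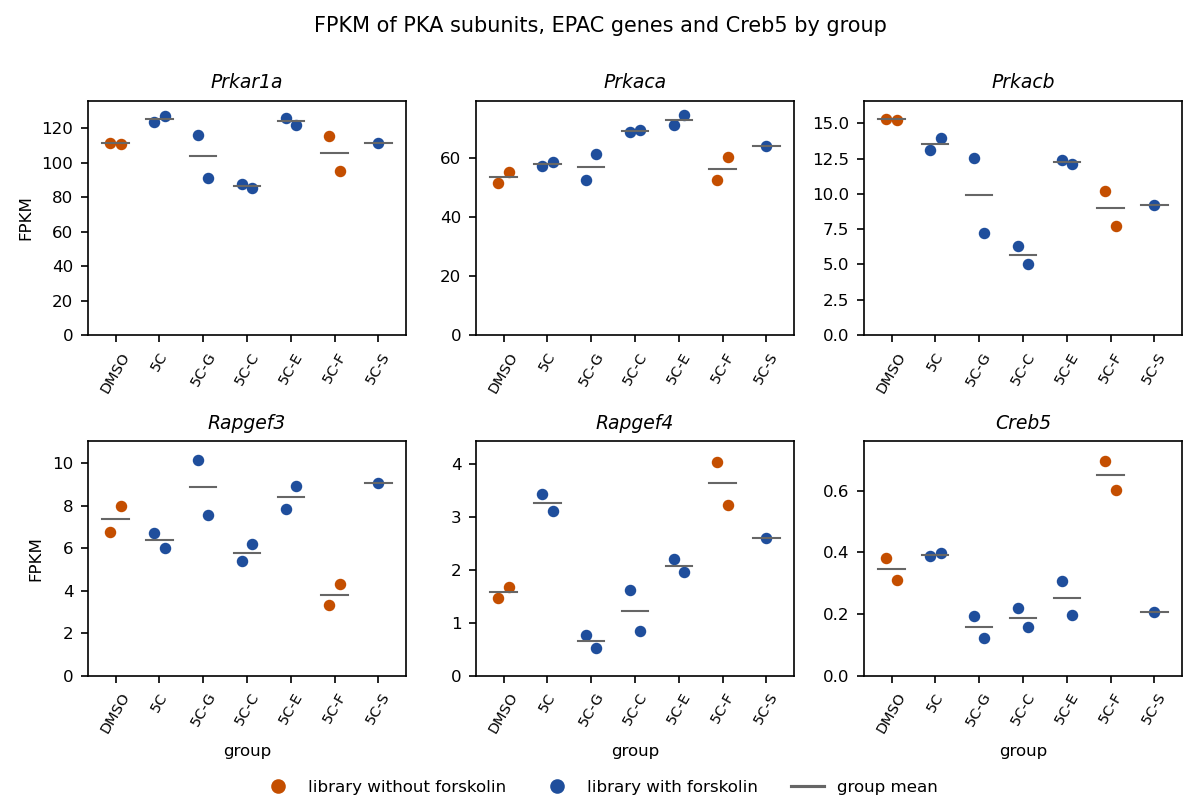
FPKM (vertical axis, linear) of PKA subunits, EPAC genes and Creb5 in each library (points) and group mean (line), by group, with libraries without forskolin in orange and with it in blue. Rapgef4 runs from 0.521 FPKM in 5C-G B to 4.04 in 5C-F A, while Prkar1a stays between 85.1 and 127.

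The groups without forskolin were examined by setting the mean of DMSO and 5C-F against the mean of 5C, 5C-G, 5C-C and 5C-E. This contrast shares its libraries with the comparisons above. DMSO also lacked the other 4 compounds, and 5C-G, 5C-C and 5C-E each lacked 1 other. Only 5C-F against 5C differed in forskolin alone. Without forskolin 3 members were higher (5.36%, against 2.62% of all genes) and 5 lower (8.93%, against 1.79%), and the 5 were all phosphodiesterases that cleave cAMP. Pde4b (log2 fold change -1.56 ± 0.20, adjusted p = 4.29e-05), Pde10a (log2 fold change -1.51 ± 0.25, adjusted p = 4.45e-04), Pde7b (log2 fold change -1.25 ± 0.27, adjusted p = 0.00446), Pde1a (log2 fold change -1.01 ± 0.16, adjusted p = 3.02e-04) and Pde4d (log2 fold change -1.01 ± 0.25, adjusted p = 0.0107) were lower without forskolin. In 5C-F against 5C, Pde4b, Pde7b and Pde1a were called lower, and Pde10a and Pde4d were not called. None of these genes was called in 5C against DMSO. The group means of all 5 were highest in 5C-E. Levels of Pde10a in libraries A and B, in FPKM, were 0.187 and 0.1698 in DMSO, 0.394 and 0.177 in 5C, 0.394 and 0.354 in 5C-G, 0.417 and 0.348 in 5C-C, 0.686 and 0.734 in 5C-E, 0.0844 and 0.141 in 5C-F, and 0.383 in 5C-S. The 5 lowest libraries of Pde10a were the 4 of DMSO and 5C-F and 5C B. For Pde4d the A and B libraries read, in FPKM, 0.273 and 0.187 in DMSO, 0.33001 and 0.526 in 5C, 0.3599 and 0.155 in 5C-G, 0.559 and 0.417 in 5C-C, 0.771 and 0.985 in 5C-E, 0.202 and 0.238 in 5C-F, and 0.2196 in 5C-S. In Pde4d the libraries overlapped, since 5C-G B and 5C-S were as low as those without forskolin.

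Creb5 (log2 fold change 1.06 ± 0.18, adjusted p = 4.74e-04) and Rapgef5 (log2 fold change 1.23 ± 0.21, adjusted p = 6.6e-04) were called higher without forskolin, but not in every group. The Creb5 levels of DMSO did not exceed those of 5C, and only the 5C-F libraries did. For Rapgef5 both 5C libraries were the highest of the 13, above DMSO and 5C-F, and the direct comparison of 5C-F with 5C had the opposite sign (log2 fold change -0.31 ± 0.35, adjusted p = 0.63). The 5C-G, 5C-C and 5C-E libraries were below all of these. Pde6c, the catalytic subunit of the cone photoreceptor enzyme, was also called higher, on few reads. Its counts in libraries A and B were 24 and 16 in DMSO, 2 and 8 in 5C, 0 and 8 in 5C-G, 0 and 0 in 5C-C, 10 and 14 in 5C-E, and 46 and 33 in 5C-F, with 24 in 5C-S. With 5C-C at 0 its fitted fold change depends on the prior count and is not given. Its call was lost without DMSO A or 5C-F A (adjusted p = 0.0556 and 0.0600).

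Over single libraries, all 4 without forskolin were below all 9 with it, in library-scaled counts, for Pde1a alone of the 56 members (against 1.12% of all genes), and above them for none (against 0.488%). The call count was 5 without 5C-C A, without 5C-E B or without 5C-F A. Pde1a was lost without DMSO B, 5C-G B, 5C-C A, 5C-E B or 5C-F B (log2 fold change -0.99 to -0.86, adjusted p = 4.05e-04 to 0.00481), Creb5 was lost without DMSO A, 5C-E B or 5C-F A (log2 fold change 0.98 to 0.99, adjusted p = 0.00158 to 0.00742), Pde7b was lost without 5C-C A (log2 fold change -0.99, adjusted p = 0.00335) and Pde4d was lost without DMSO B, 5C B, 5C-G A, 5C-C A, 5C-E B or 5C-F A (log2 fold change -0.97 to -0.86, adjusted p = 0.0148 to 0.0856). Pde4b, Pde10a and Rapgef5 stayed called without any single library. With the offset 2 members were higher and 6 lower, and Creb5, at 0.87, was no longer called. The summed hepatocyte markers were 10468 to 21442 FPKM in the libraries without forskolin and 3033 to 10863 in those with it, and the macrophage markers 1769 to 5260 and 556 to 7513. In this contrast 5 of the 8 hepatocyte markers and 8 of the 13 macrophage markers were called higher without forskolin, and none lower. The stellate, fibroblast and smooth muscle markers summed to 922 to 1367 FPKM without forskolin and 1393 to 2389.5 with it. The cholangiocyte markers summed to 2598 to 3422 and 1456 to 2437. Neither of these sums overlapped between the 4 libraries and the 9. The cholangiocyte sum was mostly Spp1 (a mean of 2667 of 2778 FPKM in DMSO). None of its 5 genes was called in this comparison, and 2 of the 5 had a positive log2 fold change. Among the 15 markers of stellate cells, fibroblasts and smooth muscle Col3a1 was called lower without forskolin (-1.22) and Reln and Myh11 higher (2.68 and 2.00). The part of these markers in the members' differences was not tested.

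The 5C-F group was also set against each other group, with the same 5C-F libraries in each. Against DMSO, in which the other compounds are absent too, 1 member was higher and 8 lower (16.1% called, against 7.4% of all genes). Rapgef4 was the one higher (log2 fold change 1.24 ± 0.28, adjusted p = 0.00667). The 8 lower were the cyclases Adcy5 (log2 fold change -1.36 ± 0.28, adjusted p = 0.00356), Adcy6 (log2 fold change -1.17 ± 0.30, adjusted p = 0.0148), Adcy7 (log2 fold change -2.58 ± 0.30, adjusted p = 3.13e-05), Adcy8 (log2 fold change -2.30 ± 0.64, adjusted p = 0.0227) and Adcy9 (log2 fold change -1.76 ± 0.46, adjusted p = 0.0163), with Akap5, Akap13 and Pde1b. Of the 13 macrophage markers 9 were also called lower in 5C-F than in DMSO, and their part in the Adcy7 and Pde1b differences was not tested. Of the 15 markers of stellate cells, fibroblasts and smooth muscle 1 was higher and 6 lower. Against 5C-G 4 members were higher and 5 lower (16.1%, against 8.03%), against 5C-C 6 and 7 (23.2%, against 10.2%) and against 5C-E 2 and 11 (23.2%, against 8.74%). In the same order 5, 5 and 7 of the 8 hepatocyte markers were higher. Of the 13 macrophage markers 8 were lower against 5C-G, 3 higher against 5C-C and 9 higher against 5C-E. Of the 15 stellate, fibroblast and smooth muscle markers 3 were higher and 8 lower, then 4 and 3, then 5 and 3. The part of these markers was not tested. Pde4b was lower in 5C-F than in 5C-C (log2 fold change -2.56 ± 0.32, adjusted p = 4.31e-05) and in 5C-E (log2 fold change -2.55 ± 0.32, adjusted p = 4.07e-05), and Rapgef4 was higher than in 5C-G (log2 fold change 2.48 ± 0.29, adjusted p = 2.82e-05). Creb5 was higher in 5C-F than in 5C-G (log2 fold change 2.04 ± 0.31, adjusted p = 2.5e-04), 5C-C (log2 fold change 1.74 ± 0.31, adjusted p = 8.47e-04) and 5C-E (log2 fold change 1.53 ± 0.30, adjusted p = 0.00202). Pde10a and Adcy5 were lower in 5C-F than in each of those 3 groups, with log2 fold changes against 5C-E of -2.49 ± 0.40 (adjusted p = 3.63e-04) for Pde10a and -1.80 ± 0.28 (adjusted p = 2.93e-04) for Adcy5.

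The single 5C-S library allowed no test. Of the 56 members 6 differed from the 5C mean by more than 1 on the log2 scale (10.7%, against 18.9% of all genes), and the members' median difference was -0.20. With at least 10 counts these were Akap8l (a difference of 1.08, at 18.6 FPKM against 10.4 and 7.03 in 5C), Adcy4 (1.36, on 23 counts against 2 and 14) and Pde6c (2.10, on 24 counts against 2 and 8).

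Other genes of the pathway were read from 5 lists: G proteins, Gs-coupled receptors, PKA inhibitors and CREB partners, other cAMP effectors, and genes that respond to cAMP. Numbers in parentheses are log2 fold changes with their SE. Of the 16 Gs-coupled receptors tested 4 were lower in 5C against DMSO (against 2.89% of all genes) and 4 higher in 5C-G against 5C (against 7.47%), with median log2 fold changes of -0.49 and 0.68. Of the 13 macrophage markers 11 were lower in 5C and 11 higher in 5C-G, and their part in the receptor differences was not tested. Among those lower in 5C were the beta-adrenergic receptor Adrb1 (-2.25 ± 0.33, adjusted p = 2.18e-04) and the prostaglandin E2 receptors Ptger4 (-1.21 ± 0.30, adjusted p = 0.0186) and Ptger2 (-1.14 ± 0.29, adjusted p = 0.0237). Among those higher in 5C-G were Adrb1 (2.12 ± 0.33, adjusted p = 2.53e-04), Ptger4 and Adcyap1r1, the PACAP receptor. Adrb1 measured, in FPKM and in the order A and B, 2.69 and 2.61 in DMSO, 0.546 and 0.626 in 5C, 2.41 and 2.24 in 5C-G, 0.801 and 0.603 in 5C-C, 0.552 and 0.634 in 5C-E, 1.32 and 1.12 in 5C-F, and 0.953 in 5C-S. Adrb1 was highest in DMSO and 5C-G, where the macrophage markers were highest, followed by 5C-F. The adenosine receptor Adora2b was higher in 5C-C (1.99 ± 0.29, adjusted p = 9.88e-05) and 5C-E (1.14 ± 0.28, adjusted p = 0.0351). Adcyap1r1 was lower in 5C-F (-1.62 ± 0.22, adjusted p = 5.23e-04), where Adrb1 was higher (1.16 ± 0.33, adjusted p = 0.0324). The prostacyclin receptor Ptgir was called lower in 5C-F, but it was listed at 0 FPKM in both 5C-F libraries and at only 0.0715 and 0.293 in 5C, so no fold is given.

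Without forskolin 3 receptors were higher (against 2.62% of all genes), among them Adrb1 (1.08 ± 0.19, adjusted p = 7.09e-04) and Calcrl (1.09 ± 0.24, adjusted p = 0.00435), and 2 were lower (against 1.79%), Adora2b (-1.36 ± 0.18, adjusted p = 5.73e-05) and Adcyap1r1 (-1.20 ± 0.14, adjusted p = 1.36e-05). Of the 13 macrophage markers 8 were called higher in the same comparison, and their part in the receptor differences was not tested. Of 13 cAMP response genes tested 2 were higher without forskolin (against 2.62% of all genes), and the median of the 13 was 0.04. Tat, the tyrosine aminotransferase of fasting liver, was one of them (2.07 ± 0.11, adjusted p = 4.14e-09), with 53.7 to 81.3 FPKM in the 4 libraries without forskolin and 10.2 to 33.6 in the 9 with it. G6pc, which releases glucose, was the other (1.27 ± 0.31, adjusted p = 0.011). Of the 8 hepatocyte markers 5, Alb, Apob, Ttr, Cps1 and Serpina1c, were called higher in the same comparison, Alb by 1.57 on the log2 scale, and their part in the Tat and G6pc differences was not tested. Tat was lower in 5C than in DMSO (-1.32 ± 0.19, adjusted p = 1.76e-04) and lower again in 5C-E, 5C-C and 5C-G than in 5C. Ppargc1a, the coactivator of gluconeogenic genes, was lower in 5C-G (-2.46 ± 0.51, adjusted p = 0.00219) and 5C-C (-2.06 ± 0.50, adjusted p = 0.00388). Hepatocyte markers were called lower in the same 3 comparisons with 5C, among them Cps1 with log2 fold changes of -2.68 in 5C-G, -2.19 in 5C-C and -1.68 in 5C-E. Apoa1 went the other way and was called higher in 5C-G (1.63). The part of the hepatocyte markers in the Tat and Ppargc1a differences was not tested.

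Of the 12 G proteins Gnao1, an inhibitory subunit, was lower in 5C (-1.28 ± 0.27, adjusted p = 0.00691) and lower again in 5C-C (-1.24 ± 0.28, adjusted p = 0.00256) and 5C-F (-1.28 ± 0.28, adjusted p = 0.00983). Gnb2, a beta subunit, was higher in 5C-G and 5C-C, Gnai1 was lower in 5C-C, and Rgs2, a regulator of G protein signalling, was lower in 5C-G (-1.38 ± 0.22, adjusted p = 3.02e-04). Gnas, the stimulatory subunit itself, was called in none of the 5 comparisons. Of the 20 PKA inhibitors and CREB partners Pkia was higher in 5C (1.10 ± 0.28, adjusted p = 0.0244) and lower in 5C-G (-1.08 ± 0.28, adjusted p = 0.00981), and Pkib ran the other way (-1.96 ± 0.48, adjusted p = 0.0175 and 1.62 ± 0.48, adjusted p = 0.0189). Both encode peptides that block the PKA catalytic subunit. The 4 highest Pkib libraries were those of DMSO (0.892 and 1.10 FPKM) and 5C-G (0.896 and 0.629), where the macrophage markers were highest too, and their part was not tested. In 5C-C the 4 lower (against 10.5% of all genes) were Atf1, Ep300, Sik2 and Crebrf. Pkib was higher without forskolin. Of the 11 other effectors tested, Abcc4, which exports cAMP, was higher in 5C-F (1.23 ± 0.25, adjusted p = 0.00638) and the cAMP-gated channel gene Hcn4 was lower. Rap1gap was higher in 5C, and Rap1gap and Hcn2 were higher and Popdc2, Prkx and Hcn4 lower in 5C-C. Popdc2 was higher in 5C-G. The smooth muscle markers Acta2, Tagln, Myh11 and Cnn1 were likewise higher in 5C-G and lower in 5C-C, Acta2 by 2.11 and -2.36 on the log2 scale, and their part in the Popdc2 differences was not tested. Other markers of the same list went differently. Des was called higher in both groups, Lrat, Reln and Pdgfra lower in both, and Thy1 higher in 5C-G alone.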

How the data were processed

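RNA of hepatocyte cultures was made into libraries with the NEBNext Ultra RNA kit, for which the handling of strand was not given in the sources used here, so reads of antisense or overlapping genes may be shared. The authors sequenced them on a NovaSeq instrument, mapped the reads to GRCm39 and deposited whole-number counts per gene, and the labels list featureCounts, Subread and DESeq2 without versions. The deposited FPKM values come from dividing those counts by gene length and library total, since count over FPKM gave 1 length per gene within 0.2% for 27140 of 27141 genes. The columns' numbers could not be matched to those of the samples, so the libraries of a group carry the letters A and B in column order.

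All 13 libraries were fitted together in edgeR 4.0.16 (R 4.3.3; quasi-likelihood test, TMM factors, filterByExpr with a minimum count of 10, a mean per group), with 6 residual degrees of freedom and a common biological coefficient of variation of 0.261. Benjamini-Hochberg adjustment ran over all 19884 genes. The 5C-S library entered the fit but was compared by its difference alone. A simulation with known changes was used to test the scripts. Named were all members called in a main comparison, and every cyclase, cAMP-cleaving phosphodiesterase, PKA subunit and EPAC gene. The symbol rule that defines the members, and the lists, were chosen with earlier results of these data known. Alternatives were DESeq2 1.42.0, library totals, 2 other filters, limma 3.58.1 on log2 of FPKM plus 1 or 0.1, the compared groups alone, a fold threshold of 0.5, an offset for GC content and length, and leaving out each library. Motifs were counted in RefSeq promoter windows. Counts of 3 or fewer were treated as the floor, which covers counting error only. The values of 1 listed receptor are not reported here.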

Additional observations from a re-analysis of the deposited data

How the results depend on the processing

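In 5C against DMSO the calls in both directions together stayed within 1.5 times of 3 (2 to 4 over all alternatives), while those higher went from 1 to 2 with library totals or the offset. With limma on log2(FPKM + 1) the calls among the members fell to 7 in 5C-C, 3 in 5C-G, 1 in 5C-F, 0 in 5C-E and 0 without against with forskolin, and with a pseudocount of 0.1 they were 0 in 5C-E, 2 in 5C-F and 4 for forskolin. A fold threshold of 0.5 gave 18 in 5C-G, 10 in 5C-F and 15 for forskolin. At any fold, an adjusted p under 0.05 was reached by 18 members and 5085 of the 19884 genes in 5C-G. In 5C-F these were 10 and 2122, and for forskolin 18 and 2569. The other counts in this paragraph stand without a share over all genes and show only how the calls moved. In 5C-E DESeq2 called 4, every gene with a count 5, at least 10 counts in every library 1 and the compared groups alone 5. The offset for GC content and length left 11 in 5C-C and reversed Creb1 there, at 0.13. Leaving out each library gave 12 to 22 calls in 5C-C, 4 to 15 in 5C-G, 1 to 6 in 5C-F, 0 to 1 in 5C-E and 5 to 9 for forskolin. The cause of these moves was not tested. Adcy2 in 5C and 5C-C, Adcy1 in 5C-C, Adcy7 in 5C, Pde3b and Rapgef4 in 5C-G, and Akap5 in 5C-F were called in each of 12 alternatives. Lost in at least 6 of the 12 alternatives were Adcy7 (9), Adcy5, Adcy8, Adcy9 and Akap8l (6 each) in 5C-C, Adcy7 (8) and Pde1b (7) in 5C-G, Rapgef5 (8) in 5C-E, Pde3a and Pde7b (7 each) in 5C-F, and Pde1b (6) in 5C, and lost in 6 to 8 of 20 for forskolin were Creb5, Pde1a and Pde4d. No paired analysis was possible because the library letters pair nothing between groups. Depth limits the low members, whose counts fell to 0 in some libraries.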
